A study of Homo sapiens with 8 samples.

Results

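Ribosomal protein genes were selected by gene symbol from a table of 21510 genes. The cytosolic set held rows named RPL or RPS and a number, with an optional A, X, Y or L and a further digit, plus RPSA, RPLP0, RPLP1 and RPLP2. The mitochondrial set held rows named MRPL or MRPS and a number, with an optional A, B or C. The rule used no measured value and found 86 cytosolic and 76 mitochondrial members, 162 in all. Of the cytosolic members 34 belong to the small and 52 to the large subunit, and of the mitochondrial members 29 and 47 by their names. Of the cytosolic members 77 are the standard genes and the others are paralogs at further loci. The Y-linked members RPS4Y1 and RPS4Y2 are counted, and their levels are not given.

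All libraries came from N/TERT-2G, an immortalised human skin keratinocyte line, in which tetracycline switches on a hairpin RNA directed at AREG, the gene of amphiregulin, a ligand of the EGF receptor. The hairpin construct was also present in the controls. Cells were collected after 60 h without addition (control, 3 libraries), with tetracycline at 1 µg/ml (Tet, 3 libraries), or with tetracycline at 1 µg/ml and EGF at 20 ng/ml (Tet+EGF, 2 libraries). Controls 2 and 3 and Tet 2 and 3 formed batch 1, and control 1, Tet 1 and both Tet+EGF libraries formed batch 2. No library of cells without the construct was given tetracycline, so effects of the drug and of the hairpin cannot be told apart. Whether the replicates came from separate cultures is not stated, so the p-values reflect the spread among libraries, which may be technical.

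The values are RPKM, reads per kilobase of gene model scaled to library size, which can be compared between genes per length. Depth relative to control 1 was estimated from the most common ratio of low RPKM values (0.03 to 1.5) of the same genes. That ratio was assumed to come from equal read numbers. The estimate was between 63.3% and 111%. The targeted gene AREG had 316, 202 and 189 RPKM in controls, 6.63, 16.7 and 16.2 with Tet, and 20.9 and 17.4 with Tet+EGF. All 5 keratinocyte markers passed the filter on low values, with 3 called higher and 2 lower with Tet (26.2% and 29.9% of all genes). The summed level of the list was 17733 to 21640 in controls, 25509 to 31309 with Tet and 14845 to 15210.5 with Tet+EGF. KRT5 was the highest gene of each library. Its share of the summed RPKM was 2.47% to 3.23% in controls, 3.53% to 4.27% with Tet and 2.03% to 2.08% with Tet+EGF. Of 8 fibroblast markers 2 passed, COL1A1 and DCN, and the summed level of the list was 1.295 to 2.90 in controls, 15.4 to 18.2 with Tet and 3.39 to 3.74 with Tet+EGF. Both passing genes, COL1A1 and DCN, were called higher with Tet. The other fibroblast markers of the list did not pass, and COL1A2, COL3A1 and PDGFRA among them stayed at or near 0. Of 4 leukocyte markers CD68 and LCP1 passed, with list sums of 47.0 to 58.9, 28.4 to 41.2 and 108.0 to 108.7 in the same order. The other leukocyte markers of the list did not pass, and PTPRC among them was at or near 0. KDR was the only passing marker of 4 endothelial genes (list sums of 0.065 to 0.291, 1.58 to 6.36 and 2.03 to 2.09) and PECAM1 was listed at 0. None of 3 melanocyte markers measured passed. The part of these marker changes in the results below was not tested.

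Cytosolic ribosomes translate nuclear-encoded mRNAs, and mitochondrial ribosomes translate the few mRNAs of mitochondrial DNA. The proteins of both particles are encoded in the nucleus, and those of the mitochondrial ribosome are imported. Growth factor signalling through mTOR controls the translation of cytosolic ribosomal protein mRNAs, most of which begin with a C followed by a run of pyrimidines, the terminal oligopyrimidine tract. The promoters of mitochondrial ribosomal protein genes are known for sites of ETS-family factors, NRF1 and YY1.

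The 5′ ends of selected genes are given here, because the pyrimidine start was more frequent in the cytosolic set. It does not separate the sets fully. The 16 standard cytosolic genes without such a start, as defined below, are not among those shown. Windows from 20 bases before to 20 bases from the annotated start were read from RefSeq (GRCh38.p14), and capitals mark the run of C or T that begins at the start. Where a gene has several starts, the one with the longest run is shown. The first 8 genes are cytosolic, and the next 8 are mitochondrial.
RPL41, chr12:56116613-56116652, plus strand: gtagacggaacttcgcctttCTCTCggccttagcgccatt
RPLP1, chr15:69452798-69452837, plus strand: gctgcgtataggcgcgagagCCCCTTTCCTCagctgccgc
RPLP0, chr12:120201092-120201131, minus strand: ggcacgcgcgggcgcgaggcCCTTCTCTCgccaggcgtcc
RPS19, chr19:41860235-41860274, plus strand: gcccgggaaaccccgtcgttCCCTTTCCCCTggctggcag
RPS27A, chr2:55232668-55232707, plus strand: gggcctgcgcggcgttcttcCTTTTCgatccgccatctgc
RPL26, chr17:8383174-8383213, minus strand: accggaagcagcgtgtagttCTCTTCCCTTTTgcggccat
RPL26L1, chr5:172958709-172958748, plus strand: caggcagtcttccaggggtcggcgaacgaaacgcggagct
RPL22L1, chr3:170870176-170870215, minus strand: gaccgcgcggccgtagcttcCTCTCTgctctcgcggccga
MRPL47, chr3:179604619-179604658, minus strand: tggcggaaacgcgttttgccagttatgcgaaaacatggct
MRPL52, chr14:22829867-22829906, plus strand: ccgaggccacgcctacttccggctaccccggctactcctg
MRPL18, chr6:159789792-159789831, plus strand: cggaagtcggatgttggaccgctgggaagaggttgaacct
MRPL17, chr11:6683321-6683360, minus strand: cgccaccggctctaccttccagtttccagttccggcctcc
MRPS6, chr21:34073558-34073597, plus strand: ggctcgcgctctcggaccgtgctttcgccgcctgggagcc
MRPS21, chr1:150293841-150293880, plus strand: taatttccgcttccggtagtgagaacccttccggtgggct
MRPS18A, chr6:43687772-43687811, minus strand: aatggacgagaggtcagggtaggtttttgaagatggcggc
MRPL53, chr2:74472661-74472700, minus strand: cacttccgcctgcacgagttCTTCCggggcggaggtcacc

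A start with C and then at least 4 of C or T, searched on the gene's strand at any annotated start, was found in 46 of 62 standard cytosolic genes with an entry (74.2%). It was found in 6 of 67 mitochondrial genes (8.96%) and in 587 of 8334 other genes tested (7.04%). The 6 mitochondrial genes were MRPL44, MRPL45, MRPL53, MRPS2, MRPS27 and MRPS33. Of the 7 cytosolic paralogs with an entry, 2 had such a start, and RPL26L1 shown above did not, whereas its partner RPL26 did. Further motifs were searched on both strands of the 300 bases from 250 before to 50 after each start, and none of them contains another. The ETS motif CCGGAAG was in 43.3% of mitochondrial, 35.5% of standard cytosolic and 22.4% of other genes. The YY1 motif AAGATGGC was in 31.3%, 9.68% and 6.65% in the same order, and the copy in MRPS18A can be read just after its start. The NRF1 motif GCATGCGC was in 8.96%, 4.84% and 6.58%, and the E-box CACGTG in 13.4%, 6.45% and 12.9%. Thus the pyrimidine start was concentrated in the cytosolic set and AAGATGGC was most frequent in the mitochondrial set, as a description of these letters alone.

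The sets also differed in level. Over all 8 libraries, mean RPKM of the standard cytosolic genes ranged from 84.0 to 2101, and that of the mitochondrial genes from 7.66 to 109.8. The highest cytosolic genes were RPL41, a very short large-subunit protein, RPS2 and RPLP1. The highest mitochondrial genes were MRPS24, MRPL51 and MRPL28, and the lowest were MRPS36, MRPL19 and MRPS31. RPL41 had 2375, 2049 and 1851 RPKM in controls, 2453, 1874 and 1871 with Tet, and 2181 and 2154 with Tet+EGF. These values overlapped between all groups, and the batch 2 library was the highest of the controls and of the Tet libraries. MRPS24 had 140.3, 115 and 93.5 RPKM in controls, 109, 96.7 and 92.7 with Tet, and 114 and 117 with Tet+EGF, so that control and Tet libraries overlapped. MRPS36, whose product is now known as the KGD4 subunit of 2-oxoglutarate dehydrogenase, had 4.06 to 7.43 RPKM in controls.

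Summed over the set, cytosolic ribosomal protein genes made up 13.3%, 11.6% and 11.1% of all RPKM in controls 1, 2 and 3. With Tet the shares were 12.4%, 10.2% and 9.79%, and with Tet+EGF 11.5% and 11.6%. Control and Tet libraries overlapped across batches, and within each batch the Tet libraries were below the controls. Mitochondrial ribosomal protein genes made up 0.655%, 0.681% and 0.660% in controls, 0.510%, 0.588% and 0.573% with Tet, and 0.587% and 0.580% with Tet+EGF. All 5 libraries with tetracycline were below all 3 controls, and the Tet+EGF libraries lay above the Tet library of their own batch. The ratio of the cytosolic to the mitochondrial sum was 20.3 in control 1 and 24.3 in Tet 1, with 19.7 and 20.1 in Tet+EGF. In batch 1 it was 17.1 and 16.9 in controls and 17.3 and 17.1 with Tet. In bulk RNA, fewer cells that express a gene and less RNA per cell cannot be told apart, and a share falls when other genes rise.

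**Figure D1:**
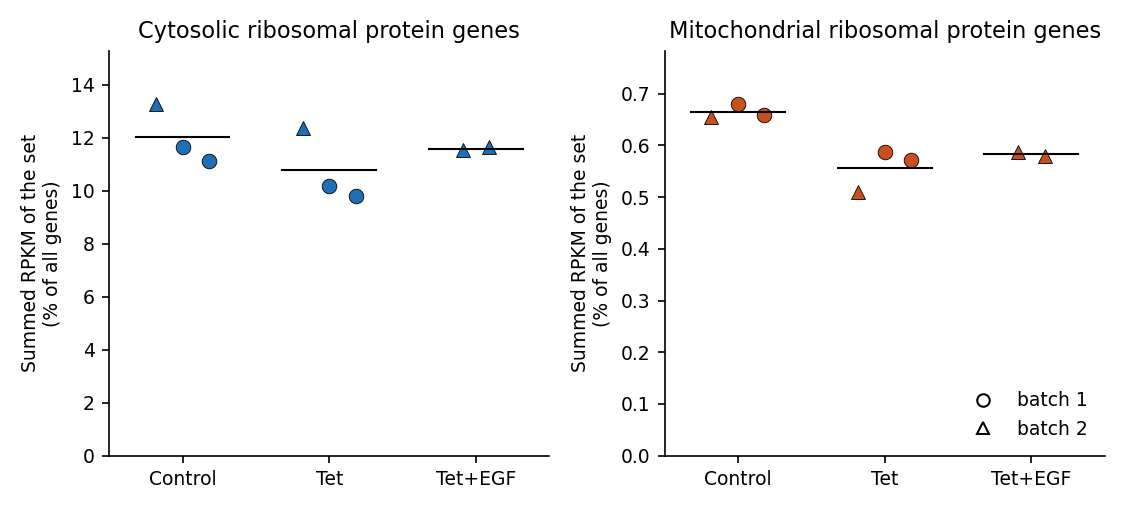
Summed RPKM of the cytosolic (left) and mitochondrial (right) ribosomal protein genes as a percent of the summed RPKM of all genes, by group. Each point is a library (circle batch 1, triangle batch 2) and each line the group mean; the mitochondrial share of all Tet and Tet+EGF libraries (0.510% to 0.588%) lies below all controls (0.655% to 0.681%).

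The joint effect of tetracycline and the induced hairpin was read from Tet against control. Most cytosolic ribosomal protein genes had small changes, and in the fit of all 8 libraries more of the mitochondrial ones were called lower. The difference between the sets was not tested. Of the 84 cytosolic members that passed the filter (RPKM of 1 or more in 2 or more libraries), 28 fell and 2 rose (limma, adjusted p under 0.05 over all genes). Of the 76 mitochondrial members, all of which passed, 38 fell and 4 rose. Over all 12567 genes kept, 29.9% fell and 26.2% rose, so the 33.3% of the cytosolic set that fell was close to the background, and the 38 of 76 in the mitochondrial set were above it. Among other genes within the level range of each set, 28.2% fell for the standard cytosolic range and 33.7% for the mitochondrial range. The median log2 fold change was -0.12 for the cytosolic set, -0.24 for the mitochondrial set and -0.04 for all genes kept. The contrast in counts depended on the batch 2 libraries. In batch 1 alone, 35 of 84 cytosolic and 35 of 76 mitochondrial members fell. Without control 1, or without Tet 1, 41 of 84 and 38 of 76 fell. The shares of all genes in these fits are not given here.

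The cytosolic genes kept close together. Their interquartile range of log2 fold changes was 0.19, against 0.32 for the mitochondrial set and 0.75 for all genes. No standard cytosolic gene of 77 rose, at an adjusted or at an unadjusted p under 0.05, while 24 fell, and their values ran from -0.63 (RPS27A) to 0.11 (RPS19). Of the 84 members 8 had every Tet library below every control, against 26.0% of all genes, and 0 had every Tet library above, against 21.9%. In the mitochondrial set 37 of 76 had every Tet library below and 4 above.

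**Figure D2:**
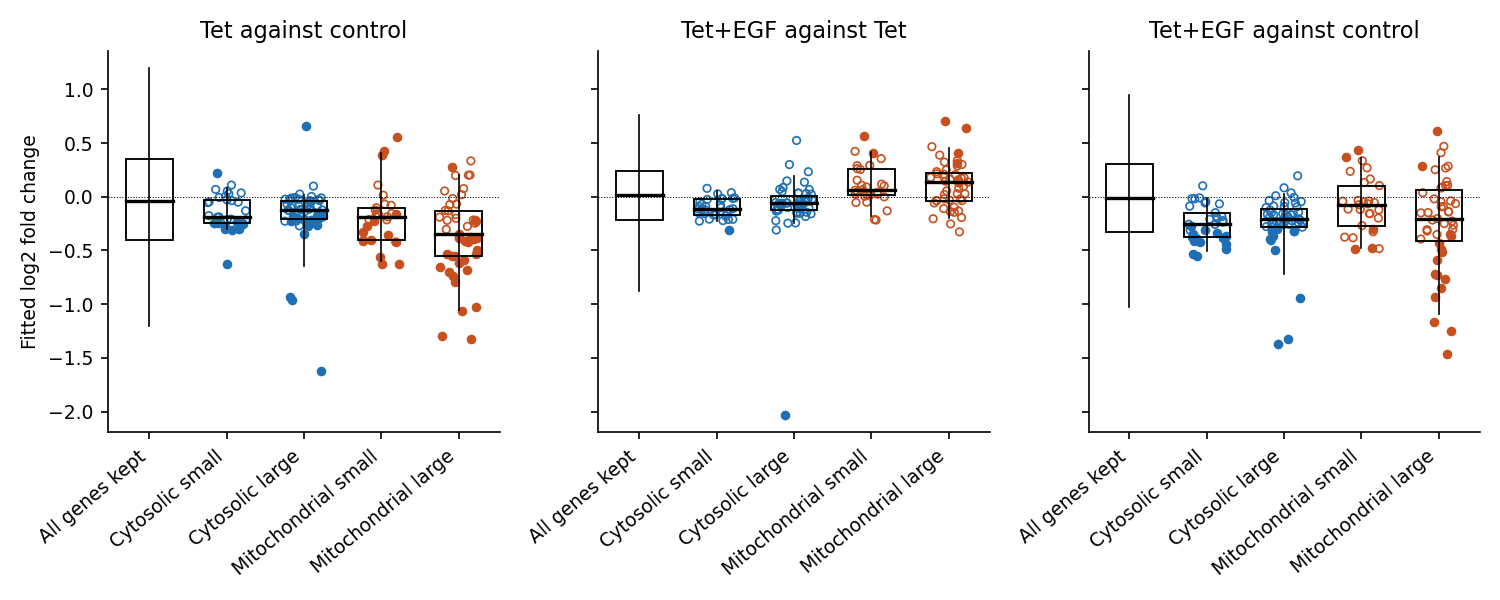
Fitted log2 fold changes of ribosomal protein genes by subunit, for the 3 comparisons. Points are members (filled where the adjusted p was under 0.05), and boxes give the quartiles and median and lines the 5th to 95th percentile, for members and for all genes kept; the large mitochondrial subunit had the lowest median for Tet against control (-0.35).

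The call count of the cytosolic set depended on single libraries. The number falling was 12 without control 2, 19 without control 3, 16 without Tet 2 and 14 without Tet 3. It was 17 without either Tet+EGF library and 41 without control 1 or without Tet 1. With the replicate number as a block, which pairs control and Tet libraries through their batches, 5 cytosolic and 24 mitochondrial members fell, and 0 and 2 rose. Median-ratio scaling left 11 cytosolic and 34 mitochondrial members falling. When each library was left out in turn, 30 to 38 mitochondrial members fell.

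The small cytosolic subunit had 13 of 33 members fall (39.4%) and the large subunit 15 of 51 (29.4%), with medians of -0.19 and -0.12, against 29.9% of all genes, so that the large subunit was at the background. RPS27A, which encodes ubiquitin fused to a small-subunit protein, had the lowest value of the standard genes. It had 179, 175 and 160.1 RPKM in controls, 128, 114 and 92.5 with Tet, and 129.9 and 127 with Tet+EGF. The Tet and Tet+EGF libraries were all below the controls (log2 fold change of -0.63 for Tet, limma adjusted p = 0.00143, and -0.55 for Tet+EGF against control, limma adjusted p = 0.0175). RPS2, a small-subunit protein near the mRNA entry site, had 2194, 1757 and 1856 RPKM in controls, 1789.8, 1403 and 1506 with Tet, and 1501 and 1544 with Tet+EGF. Control and Tet libraries overlapped across batches and were apart within each, and the change for Tet was -0.31 (SE 0.06, limma adjusted p = 0.00317).

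The P stalk recruits translation factors to the large subunit and is built from RPLP0, RPLP1 and RPLP2. RPLP0 had 1278, 1073 and 1050.1 RPKM in controls, 1073, 807 and 809.5 with Tet, and 941 and 928 with Tet+EGF. The Tet+EGF libraries were below all controls, the Tet libraries overlapped with controls only across batches, and the log2 fold change for Tet was -0.35 (SE 0.05, limma adjusted p = 0.00161). RPLP1 had 2443, 1308 and 1239 RPKM in controls, 2098, 1194 and 1331 with Tet, and 1706 and 1848 with Tet+EGF. Both batch 2 libraries of RPLP1 exceeded every batch 1 library of control or Tet, and the change for Tet was -0.08 (SE 0.08, limma adjusted p = 0.383). Against control, RPLP1 with Tet+EGF was at -0.39 (SE 0.10, limma adjusted p = 0.0241) in the fit with batch, but its value was 0.17 without the batch term and 0.04 with the replicate block. RPLP2 had 1219, 959 and 892 RPKM in controls, 1222, 825 and 1020.4 with Tet, and 1007 and 1051 with Tet+EGF, with overlapping groups and a change for Tet of -0.01 (SE 0.09, limma adjusted p = 0.953). Of the 3 stalk genes RPLP0 alone was called for Tet, and RPLP0 and RPLP1 were called lower for Tet+EGF against control, RPLP0 at -0.50 (SE 0.07, limma adjusted p = 0.00287), which the replicate block moved to -0.33 (limma adjusted p = 0.125).

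The paralogs showed the largest changes of the cytosolic set for Tet. RPL39L, a paralog of RPL39 known for its expression in testis and in tumours, had 49.6, 38.6 and 31.1 RPKM in controls, 14.4, 12.5 and 10.4 with Tet, and 19.3 and 17.99 with Tet+EGF. Every Tet library was below every control, the Tet+EGF libraries lay between, and the log2 fold change for Tet was -1.62 (SE 0.11, limma adjusted p = 4.65e-05). It was the only cytosolic member that fell at least 2-fold, a size that 6.97% of all genes reached downward. RPL39 had 674, 549 and 543 RPKM in controls, 843, 545 and 462 with Tet, and 747 and 713 with Tet+EGF, with overlapping control and Tet libraries and a change of 0.03 (SE 0.11, limma adjusted p = 0.852).

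RPL26L1, a close paralog of RPL26, had 34.7, 38.6 and 37.9 RPKM in controls, 17.01, 18.6 and 20.8 with Tet, and 18.1 and 17.1 with Tet+EGF. All libraries with tetracycline were below all controls, at -0.97 (SE 0.07, limma adjusted p = 6.07e-05) for Tet, and at -0.94 (SE 0.09, limma adjusted p = 0.000689) for Tet+EGF against control. RPL26 had 999, 976 and 861 RPKM in controls, 1005, 878 and 736 with Tet, and 889 and 862 with Tet+EGF, with overlapping groups and a change for Tet of -0.12 (SE 0.09, limma adjusted p = 0.282). RPL22L1, the paralog of the RNA-binding protein RPL22, had 46.2, 34.2 and 33.8 RPKM in controls, 14.9, 21.9 and 22.6 with Tet, and 27.4 and 27.5 with Tet+EGF. Its Tet libraries were lowest, its Tet+EGF libraries lay between Tet and control, and its change for Tet was -0.93 (SE 0.19, limma adjusted p = 0.00475). The fall of RPL22L1 was -0.60 in batch 1 and -1.60 in batch 2, and this difference between batches passed its own test (limma adjusted p = 0.00117). RPL22 had 117, 111 and 113 RPKM in controls, 125, 105 and 93.7 with Tet, and 113 and 111 with Tet+EGF, with overlap and a change of -0.08 (SE 0.08, limma adjusted p = 0.394).

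No fall for Tet against control was called for RPS27L, RPL7L1 or RPL3L. RPS27L, a target of p53 that resembles RPS27, had 31.9, 26.2 and 27.8 RPKM in controls, 37.6, 33.1 and 29.9 with Tet, and 33.3 and 35.6 with Tet+EGF. Its Tet libraries were above the control of the same batch and overlapped across batches, with a change of 0.22 (SE 0.07, limma adjusted p = 0.0313), a call that was lost without control 2 (limma adjusted p = 0.104), control 3 (0.0572), Tet 2 (0.101), Tet+EGF 1 (0.065) or Tet+EGF 2 (0.0653) and with the replicate block (0.186). RPS27 had 515, 356 and 284 RPKM in controls, 554, 355 and 305 with Tet, and 498 and 512 with Tet+EGF, where batch 2 was high in control and Tet alike, and its change for Tet was 0.07 (SE 0.10, limma adjusted p = 0.583). RPL7L1, a nucleolar relative of RPL7, had 42.6, 47.2 and 49.1 RPKM in controls, 40.2, 48.3 and 41.8 with Tet, and 42.7 and 42.5 with Tet+EGF, and its change for Tet was -0.09 (SE 0.07, limma adjusted p = 0.307).

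RPL3L, a paralog of RPL3 known from heart and skeletal muscle, was low. It had 2.31, 1.38 and 1.00 RPKM in controls, 5.89, 2.04 and 1.42 with Tet, and 0.711 and 0.901 with Tet+EGF. Tet 1 stood above the other libraries, Tet and control overlapped, and both Tet+EGF libraries were below all others. The change was 0.66 (SE 0.21, limma adjusted p = 0.0309) for Tet against control and -2.03 (SE 0.28, limma adjusted p = 0.00326) for Tet+EGF against Tet. The first call was lost without control 1 (limma adjusted p = 0.0987), control 3 (0.0834), Tet 1 (0.103), Tet 2 (0.096) or Tet+EGF 2 (0.0503) and with the block (0.126), while RPL3 had 1249, 1112 and 1054 RPKM in controls, 1198, 922 and 913 with Tet, and 1103 and 1103 with Tet+EGF. RPL10L, a testis paralog of RPL10, stayed under 0.5 RPKM and did not pass the filter. Ribosomal protein genes have near-identical processed pseudogenes, and the sources used here do not say how reads shared among copies were counted, which leaves their levels uncertain. Of 28 rows named as such pseudogenes 22 passed, and 2 fell for Tet (9.09%, against 29.9% of all genes), RPSAP52 at -1.70 and RPLP0P2 at -0.27.

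**Figure D3:**
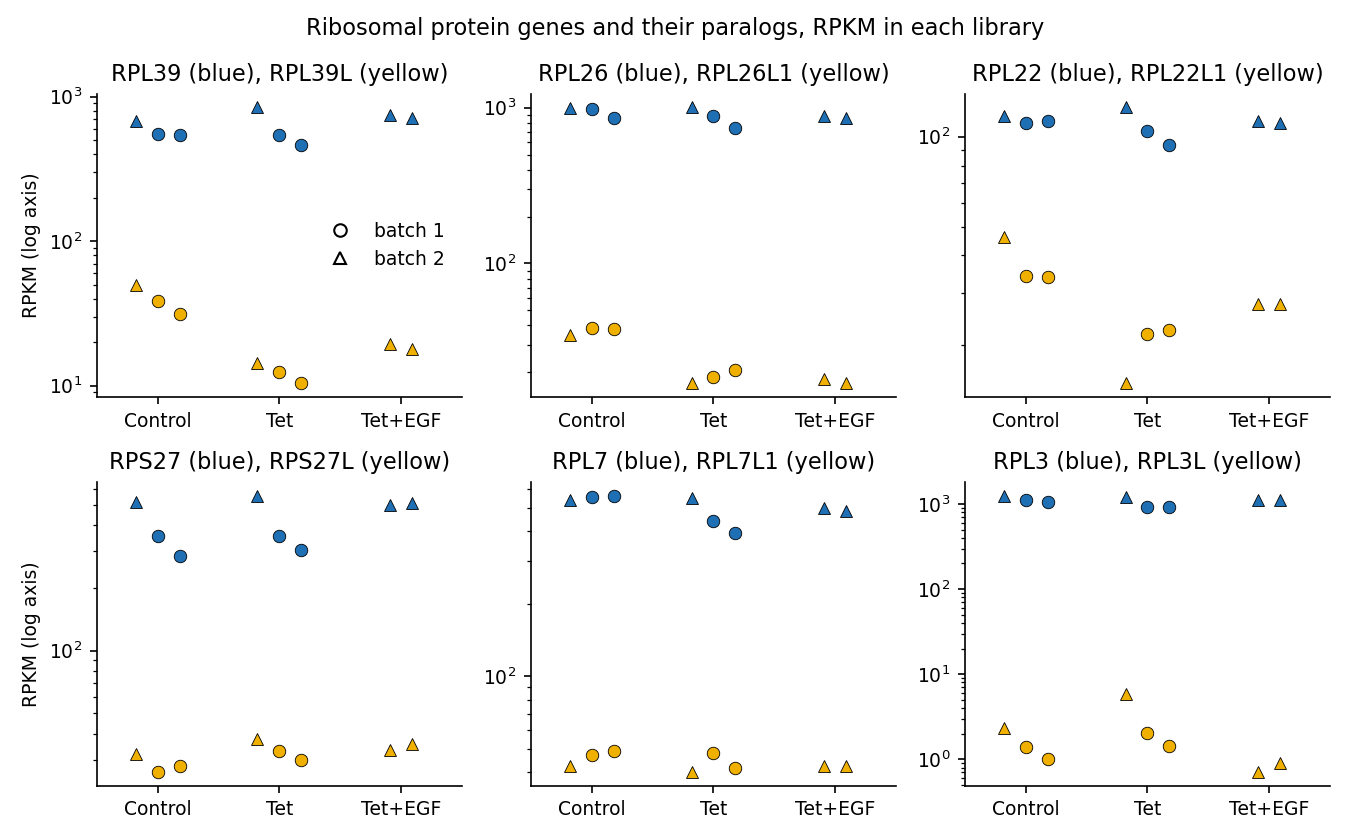
RPKM of 6 cytosolic ribosomal protein genes (blue) and their paralogs (yellow) in each library, on a log axis, by group (circle batch 1, triangle batch 2). RPL39L, RPL26L1 and RPL22L1 are lower in all Tet libraries than in all controls, while RPL39, RPL26 and RPL22 overlap.

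In the mitochondrial ribosome both subunits held members that fell. Of 47 large-subunit members 26 fell (55.3%) and 1 rose, with a median of -0.35, and of 29 small-subunit members 12 fell (41.4%) and 3 rose, with a median of -0.19. Over all genes 29.9% fell and 26.2% rose. The difference between subunits was not tested. The 4 members that fell at least 2-fold were MRPL47, MRPL52, MRPL2 and MRPL18, all of the large subunit. Over all genes 6.97% fell by at least this much, so 4 of the 76 mitochondrial members was not above the background.

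MRPL47, the uL29 protein near the exit of the peptide tunnel, had 26.1, 27.3 and 24.5 RPKM in controls, 7.25, 11.99 and 11.6 with Tet, and 7.97 and 7.49 with Tet+EGF. Every library with tetracycline was below every control, and the log2 fold change for Tet was -1.33 (SE 0.14, limma adjusted p = 0.000273). The fall was -1.10 in batch 1 and -1.78 in batch 2, a difference that passed its own test (limma adjusted p = 0.0125). MRPL52, a protein without a bacterial counterpart, had 29.01, 28.8 and 23.2 RPKM in controls, 9.80, 11.3 and 10.8 with Tet, and 11.1 and 10.96 with Tet+EGF, and its change was -1.30 (SE 0.11, limma adjusted p = 0.000101). Its Tet and Tet+EGF libraries were close to each other and all below the controls.

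MRPL2, the uL2 protein of the ribosomal core, had 45.2, 35.5 and 33.9 RPKM in controls, 16.7, 17.7 and 19.1 with Tet, and 18.6 and 16.7 with Tet+EGF, again with no overlap, at -1.07 (SE 0.12, limma adjusted p = 0.000305). MRPL18, of the uL18 family, had 41.5, 43.6 and 42.2 RPKM in controls, 21.9, 18.7 and 21.1 with Tet, and 24.7 and 22.9 with Tet+EGF, at -1.03 (SE 0.08, limma adjusted p = 7.43e-05). Its Tet+EGF libraries were slightly above all Tet libraries, and both groups were far below the controls. MRPL1, of the uL1 family at the exit side of the ribosome, had 17.96, 16.3 and 14.5 RPKM in controls, 9.01, 11.8 and 9.29 with Tet, and 8.51 and 8.08 with Tet+EGF. It was -0.68 (SE 0.13, limma adjusted p = 0.0036) for Tet and -0.93 (SE 0.17, limma adjusted p = 0.00697) for Tet+EGF against control, and its Tet+EGF libraries were the lowest.

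Other mitochondrial members that fell with Tet were higher with Tet+EGF than with Tet. MRPS6, the bS6 protein of the small subunit, had 30.3, 29.8 and 26.7 RPKM in controls, 17.3, 17.8 and 20.5 with Tet, and 27.3 and 27.4 with Tet+EGF. The Tet libraries were the lowest without overlap, the Tet+EGF libraries lay within the control range, and the change was -0.63 (SE 0.09, limma adjusted p = 0.00107) for Tet and 0.56 (SE 0.12, limma adjusted p = 0.019) for Tet+EGF against Tet. The second call was lost without Tet+EGF 1 (limma adjusted p = 0.117), Tet+EGF 2 (0.113) or Tet 1 (0.0503). With the replicate block this MRPS6 call was lost as well (limma adjusted p = 0.072). MRPL17, of the bL17 family, had 23.9, 29.8 and 30.6 RPKM in controls, 16.5, 22.1 and 24.6 with Tet, and 28.99 and 27.5 with Tet+EGF. Its Tet+EGF libraries were above all Tet libraries, and the change was -0.42 (SE 0.07, limma adjusted p = 0.00268) for Tet and 0.70 (SE 0.10, limma adjusted p = 0.00358) for Tet+EGF against Tet. The second call of MRPL17 was lost without the batch term (limma adjusted p = 0.198) and with the replicate block (0.106). MRPL16, of the uL16 family, had 21.2, 36.9 and 34.8 RPKM in controls, 18.3, 24.8 and 26.5 with Tet, and 28.1 and 26.00 with Tet+EGF, with lower values in batch 2 in both control and Tet. Its Tet+EGF libraries overlapped the Tet libraries across batches. The change was -0.39 (SE 0.08, limma adjusted p = 0.0064) for Tet and 0.64 (SE 0.11, limma adjusted p = 0.00843) for Tet+EGF against Tet. The second call was lost without the batch term (0.23, limma adjusted p = 0.613) and with the replicate block (0.34, limma adjusted p = 0.397). Without Tet+EGF 1 the second change was 0.58.

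A few members rose with Tet against the direction of the set. MRPS21, the bS21 protein of the small subunit, had 62.1, 55.99 and 53.9 RPKM in controls, 85.9, 76.1 and 69.8 with Tet, and 83.00 and 80.6 with Tet+EGF. All libraries with tetracycline were above all controls, at 0.42 (SE 0.06, limma adjusted p = 0.00115) for Tet and 0.37 (SE 0.08, limma adjusted p = 0.0143) for Tet+EGF against control. MRPS25, a small-subunit protein, had 7.20, 9.81 and 9.50 RPKM in controls, 10.2, 12.9 and 11.9 with Tet, and 10.1 and 10.4 with Tet+EGF, with Tet above control without overlap at 0.39 (SE 0.07, limma adjusted p = 0.00384), a call lost with the replicate block (limma adjusted p = 0.0519). MRPS36, introduced above, had 7.43, 6.04 and 4.06 RPKM in controls, 9.84, 8.54 and 7.51 with Tet, and 8.87 and 9.01 with Tet+EGF, likewise without overlap, at 0.55 (SE 0.15, limma adjusted p = 0.0151), and was lost without Tet 2 (limma adjusted p = 0.0612).

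MRPL35, of the bL35 family, had 7.84, 9.32 and 9.40 RPKM in controls, 10.4, 11.8 and 10.3 with Tet, and 9.46 and 7.94 with Tet+EGF. Its Tet libraries were above all controls by a small margin, at 0.28 (SE 0.10, limma adjusted p = 0.0466). That call was lost when any library except Tet 3 was left out, with adjusted p-values from 0.0584 to 0.139. Among members of high level MRPL28 had 91.7, 87.2 and 87.5 RPKM in controls, 77.5, 74.5 and 77.7 with Tet, and 93.3 and 93.1 with Tet+EGF, with Tet below the other groups, at -0.21 (SE 0.05, limma adjusted p = 0.0136) for Tet, while the block gave a limma adjusted p = 0.118. MRPL51 had 89.5, 126 and 124 RPKM in controls, 110.2, 109 and 88.9 with Tet, and 115 and 108 with Tet+EGF, with overlap and a change of -0.13 (SE 0.14, limma adjusted p = 0.47). Among low members MRPL19 had 7.76, 7.58 and 8.57 RPKM in controls, 7.13, 7.03 and 6.19 with Tet, and 8.91 and 8.52 with Tet+EGF and MRPS31 had 8.26, 9.84 and 9.59 RPKM in controls, 7.33, 8.90 and 8.48 with Tet, and 8.01 and 6.74 with Tet+EGF. Their changes for Tet, -0.22 and -0.16, did not pass (limma adjusted p = 0.0765 and 0.16).

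**Figure D4:**
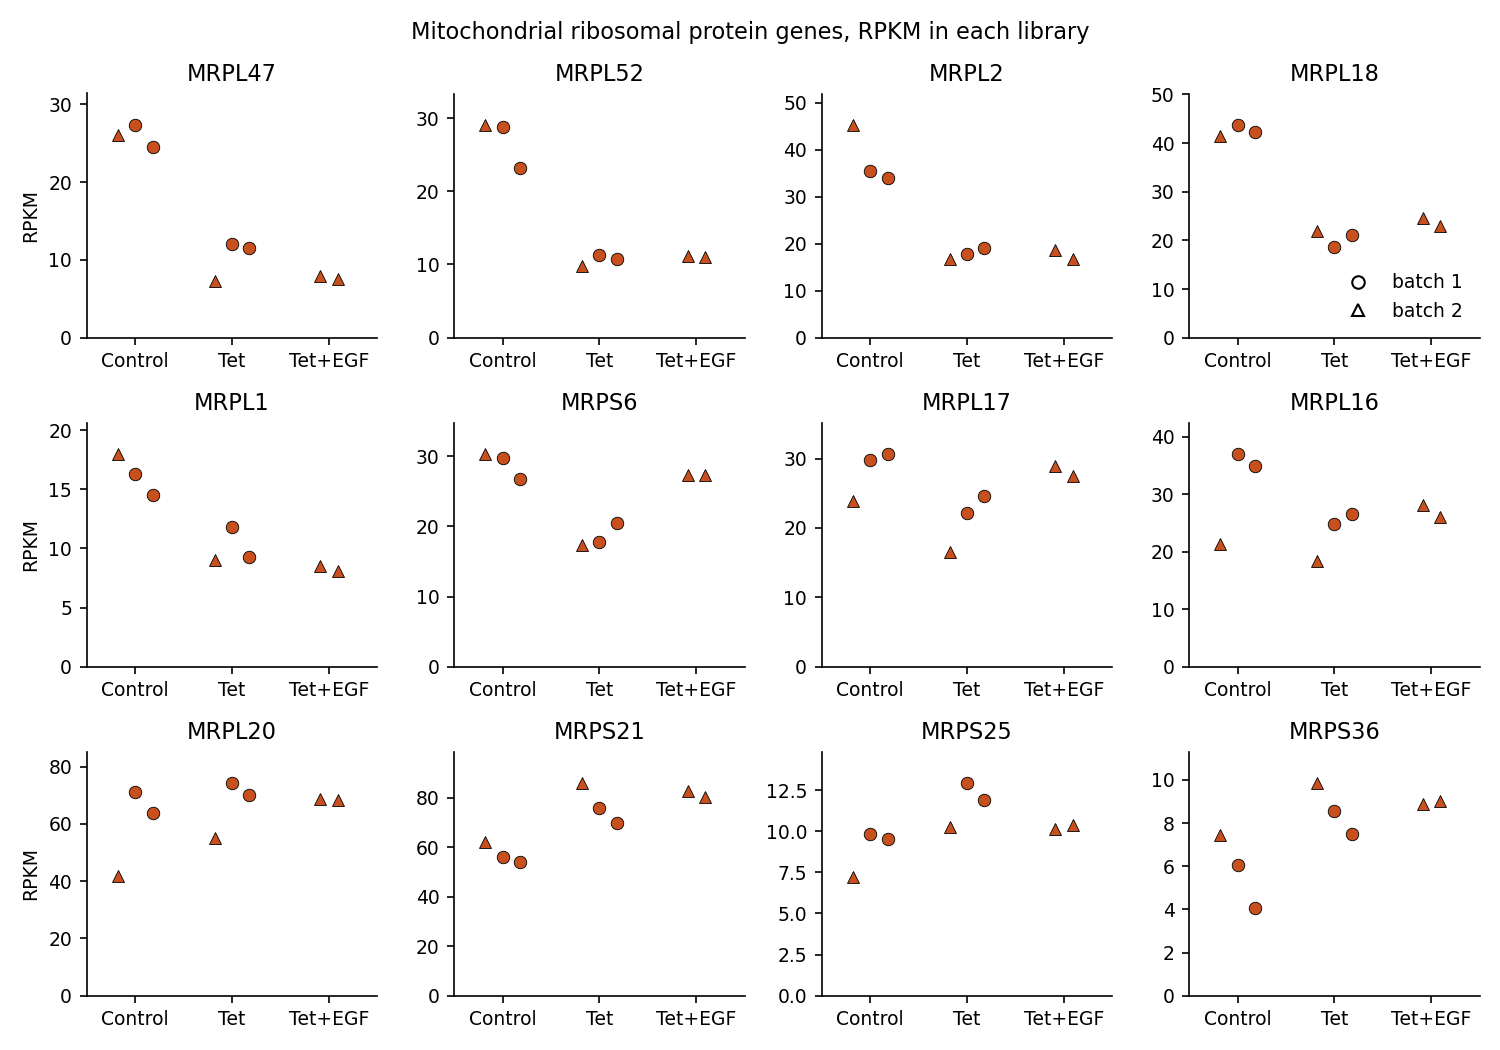
RPKM of 12 mitochondrial ribosomal protein genes in each library, by group (circle batch 1, triangle batch 2; axes start at 0). MRPL47, MRPL52, MRPL2, MRPL18 and MRPL1 stay low in Tet+EGF, MRPS6 is back in the control range (26.7 to 30.3), and MRPS21 is higher in all libraries with tetracycline.

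MRPS18A, MRPS18B and MRPS18C are paralogs of the bacterial S18 protein, and MRPS18A is known to sit in the large subunit. MRPS18A had 54.5, 45.9 and 39.4 RPKM in controls, 30.9, 36.6 and 36.3 with Tet, and 37.1 and 38.5 with Tet+EGF, with all libraries with tetracycline below all controls, at -0.42 (SE 0.13, limma adjusted p = 0.0279). Its fall was -0.22 in batch 1 and -0.81 in batch 2 (limma adjusted p = 0.0204 for the difference), and the call was lost without control 2 (0.0757) and with the block (0.0654). MRPS18B had 58.6, 46.00 and 45.9 RPKM in controls, 42.6, 37.7 and 33.3 with Tet, and 46.6 and 46.7 with Tet+EGF, with Tet below control without overlap, at -0.40 (SE 0.07, limma adjusted p = 0.00235). MRPS18C had 15.3, 14.2 and 10.1 RPKM in controls, 12.8, 11.7 and 9.87 with Tet, and 13.7 and 13.7 with Tet+EGF, with overlapping groups, at -0.18 (SE 0.13, limma adjusted p = 0.27).

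Some members changed with Tet by different amounts in the batches. For Tet against control the cytosolic median was -0.19 in batch 1 and -0.05 in batch 2, and the mitochondrial median was -0.22 and -0.43. The medians of all genes kept were -0.01 and -0.09, so in batch 2 the cytosolic median was not below that of all genes. Of the cytosolic members 47 of 84 were lower in both batches, and of the mitochondrial members 56 of 76, against 5214 of 12567 genes kept. The batch by Tet interaction was called for 6 cytosolic and 17 mitochondrial members (7.14% and 22.4%), against 26.7% of all genes, so neither share was above the background. With median-ratio scaling the counts were 13 and 9, and without a filter 2 and 9, and the difference between the sets was not tested. Of the 17 mitochondrial members 14 were more negative in batch 2, and of the 6 cytosolic members 5 were less negative or positive there. Over all genes, 2190 of the 3351 called were more negative in batch 2 and 1161 were not, so most calls leaned that way in general. Batch 2 held 1 control and 1 Tet library, so a batch and these single libraries cannot be told apart.

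**Figure D5:**
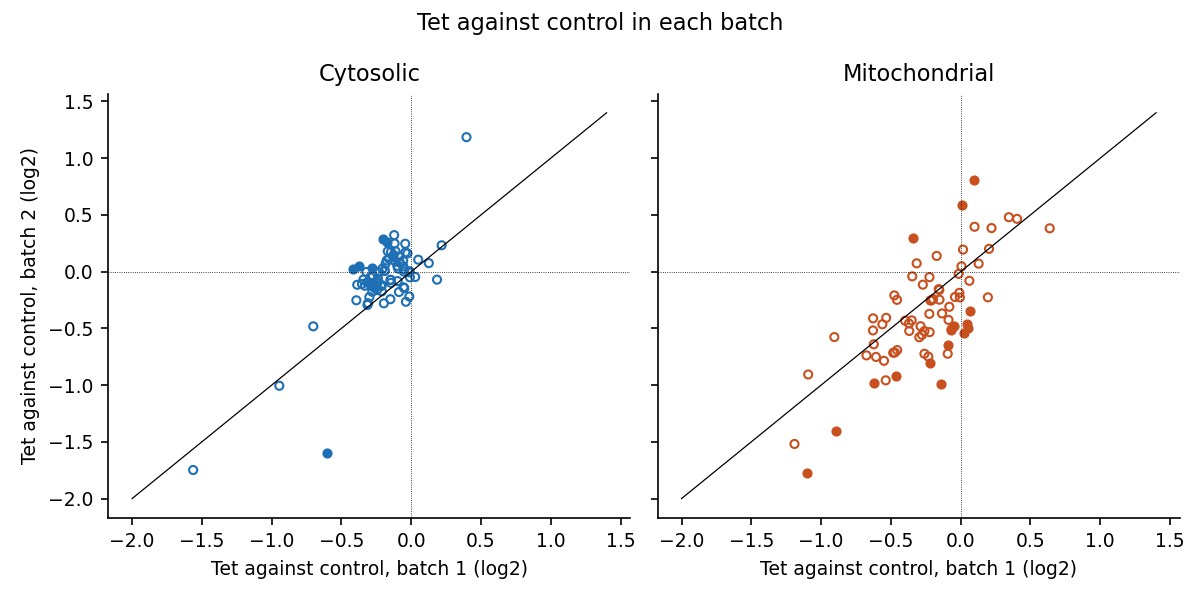
Log2 fold change of Tet against control in batch 1 (x axis, 2 libraries a group) and batch 2 (y axis, 1 library a group) for cytosolic (left) and mitochondrial (right) members. Filled points passed the test of the difference between batches (6 and 17 members), and the diagonal marks equal values. Most filled mitochondrial points (14) lie below it, as did 2190 of the 3351 genes called over all genes.

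The effect of adding EGF was read from Tet+EGF against Tet. Few members passed. No cytosolic member was higher (0 also at an unadjusted p under 0.05) and 2 were lower, RPS19 and RPL3L. In the mitochondrial set 6 were higher, MRPL17, MRPL16, MRPS6, MRPL20, MRPS23 and MRPL24, and 0 were lower (1 at an unadjusted p under 0.05). The last pair was named after its values were seen. Over all genes kept, 9.82% were higher and 9.15% lower, so the 7.89% higher in the mitochondrial set was close to the background. The medians were -0.08 for the cytosolic set, 0.09 for the mitochondrial set and 0.02 for all genes.

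Within batch 2 alone the medians were -0.12 and 0.13. Without the batch term the cytosolic median was 0.11. In the mitochondrial set 28 of 76 members had both Tet+EGF libraries above all Tet libraries, against 32.2% of all genes, and 8 had them below, against 20.3%. In the cytosolic set the counts were 6 above and 7 below of 84. The mitochondrial count of 6 higher rested on single libraries. It was 19 without control 1, 3 without control 2 or Tet 3, 1 without Tet+EGF 1 and 2 without Tet+EGF 2. Without Tet 1 it was 8 higher and 9 lower. The cytosolic count was 1 lower without control 2, control 3, Tet 2, Tet 3 or either Tet+EGF library, 7 lower and 1 higher without control 1, and 5 lower and 4 higher without Tet 1.

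RPS19, mutated in Diamond-Blackfan anemia, had 499, 469.5 and 454 RPKM in controls, 525, 483 and 526 with Tet, and 415 and 443 with Tet+EGF. Both Tet+EGF libraries were below all others, at -0.31 (SE 0.08, limma adjusted p = 0.0378) against Tet. That call was lost without control 2 (limma adjusted p = 0.0636), control 3 (0.0749), Tet 2 (0.0588), Tet 3 (0.0561), Tet+EGF 1 (0.252) or Tet+EGF 2 (0.127). MRPL20, of the bL20 family, had 41.8, 71.2 and 63.6 RPKM in controls, 55.1, 74.1 and 70.2 with Tet, and 68.7 and 68.3 with Tet+EGF, where control 1 was the lowest library and Tet 1 the next. Its Tet+EGF libraries lay among the batch 1 libraries, and the fitted change against Tet was 0.41 (SE 0.11, limma adjusted p = 0.0438). It was lost without control 2, control 3, Tet 2, Tet 3, Tet+EGF 1 or Tet+EGF 2, with adjusted p-values from 0.0589 to 0.205.

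Tet+EGF was also compared with control. This comparison shares its libraries with the others, so its values are given beside them and no overlap is counted. Of the cytosolic members 23 were lower and 0 higher (0 also at an unadjusted p under 0.05), with a median of -0.22. Of the mitochondrial members 17 were lower and 4 higher, with a median of -0.14. Over all genes kept 16.2% were lower and 16.0% higher, with a median of -0.01, so 27.4% and 22.4% lower were above the background. In the small cytosolic subunit 14 of 33 were lower, against 9 of 51 in the large subunit, while in the mitochondrial ribosome 3 of 29 small-subunit and 14 of 47 large-subunit members were lower. These differences between subunits were not tested.

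The 4 mitochondrial members that were higher were MRPL20, MRPS25, MRPS21 and MRPL53. MRPL53 had 50.1, 56.6 and 58.7 RPKM in controls, 57.4, 58.6 and 58.05 with Tet, and 65.5 and 61.8 with Tet+EGF, with the Tet+EGF libraries above all others, at 0.28 (SE 0.09, limma adjusted p = 0.045) against control. That call was lost when any library except Tet 1 was left out, with adjusted p-values from 0.0568 to 0.244. In the cytosolic set 27 of 84 members had both Tet+EGF libraries below all controls and 6 above. In the mitochondrial set the counts were 42 and 8 of 76, against 27.8% below and 32.3% above over all genes. The number of cytosolic members lower was 5 without Tet+EGF 1, 6 without Tet+EGF 2, 15 without Tet 2 and 37 without control 1. The number of mitochondrial members lower was 8 and 10 without Tet+EGF 1 and 2, with 0 higher, and without Tet 1 it was 32 lower and 9 higher.

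Cytosolic genes with and without the pyrimidine start had close medians. The 46 standard genes that have it had a median log2 fold change of -0.08 for Tet, and the 16 without it had -0.14. For Tet+EGF against control the medians were -0.20 and -0.20. Other mRNAs known to carry a terminal oligopyrimidine tract were measured for 17 genes, of which 8 fell with Tet (47.1%) and 2 rose (11.8%), against 29.9% and 26.2% of all genes, with a median of -0.16. HNRNPA1, an RNA-binding protein gene, had 374, 418 and 403 RPKM in controls, 171, 161 and 152 with Tet, and 199 and 200.4 with Tet+EGF, at -1.30 (SE 0.07, limma adjusted p = 1.98e-05). All libraries with tetracycline were below all controls. PABPC4 and PABPC1, which encode poly(A)-binding proteins, fell, at -0.94 and -0.44 on the log2 scale.

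Ribosomal proteins whose symbols the rule does not match were also measured. Of the cytosolic ones reported, GNB2L1, the RACK1 scaffold of the small subunit, and FAU, whose product holds RPS30, fell with Tet at -0.36 and -0.32. RPL36AL did not pass. Of 7 mitochondrial ones 2 fell (28.6%, against 29.9% of all genes), GADD45GIP1 and ICT1, both in the large subunit, at -0.52 and -0.21.

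Most genes that build cytosolic ribosomes fell. Of 74 measured ribosome biogenesis genes 63 fell and 0 rose with Tet (0 also at an unadjusted p under 0.05), with a median of -0.61. The 85.1% that fell stood beside 29.9% of all genes. Of the 74 genes 69 were lower in both batches, but the size of the fall differed between them. The median for Tet was -0.46 in batch 1 and -0.80 in batch 2, which held 1 control and 1 Tet library. The batch by Tet interaction was called for 37 of the 74 (50%, against 26.7% of all genes), 36 of them more negative in batch 2. GAR1, of the H/ACA particles that direct pseudouridylation, had 20.1, 24.9 and 22.6 RPKM in controls, 2.95, 4.92 and 5.53 with Tet, and 3.86 and 3.27 with Tet+EGF, at -2.25 (SE 0.13, limma adjusted p = 2.46e-05). RRP1B, a nucleolar protein, had 14.2, 21.1 and 20.2 RPKM in controls, 3.22, 4.89 and 6.01 with Tet, and 4.17 and 4.07 with Tet+EGF, at -1.89 (SE 0.10, limma adjusted p = 1.66e-05). POLR1A, the largest subunit of RNA polymerase I, had 8.51, 13.6 and 13.1 RPKM in controls, 4.18, 6.41 and 6.76 with Tet, and 5.86 and 5.78 with Tet+EGF, at -0.96 (SE 0.07, limma adjusted p = 6.24e-05). The Tet libraries of all 3 genes were below all controls. For Tet+EGF against Tet 21 of the 74 were higher (28.4%, against 9.82% of all genes). None was lower (0 also at an unadjusted p under 0.05), and the median was 0.35. POLR1A was among those higher at 0.44, though its Tet+EGF libraries overlapped the Tet libraries across batches. Of the 74 genes 17 had both Tet+EGF libraries above all Tet libraries, against 32.2% of all genes, so this share was not above the background. In 1 gene both were below, against 20.3% of all genes.

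Of 25 measured genes of mitochondrial ribosome assembly, 12 fell (48%) and 1 rose (4%) with Tet, against 29.9% and 26.2% of all genes, with a median of -0.24. C18orf22, the ribosome-binding factor RBFA, METT11D1 and FTSJ2, which are methyltransferase genes of this list, fell at -1.18, -0.76 and -0.54. Of 22 mitochondrial translation factors and related genes 6 fell (27.3%) and 3 rose (13.6%), neither above those background shares, with a median of -0.09. GFM2, a factor of mitochondrial ribosome recycling, rose at 0.93, whereas MRRF, its partner in recycling, and TACO1, a translational activator, were at -0.63 and -0.67. Among 16 regulators that passed the filter 8 fell (50%) and 0 rose (1 at an unadjusted p under 0.05), beside the same background shares. EIF4EBP1, a translational repressor controlled by mTOR, had 169, 123 and 127 RPKM in controls, 38.1, 33.3 and 37.9 with Tet, and 67.5 and 81.3 with Tet+EGF, at -1.91 (SE 0.11, limma adjusted p = 2.21e-05). Its Tet+EGF libraries lay between Tet and control. NRF1 and TFAM, transcription factors of nuclear and mitochondrial genes of the organelle, were at -0.97 and -0.59.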

How the data were processed

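Per the labels' protocols, poly(A) RNA of 8 libraries was sequenced with 1 library in each lane of an Illumina Genome Analyzer IIx. The authors deposited 1 table of RPKM values, aligned with TopHat 1.3.3 per the submitters' processing notes. How reads were counted, and on which build and annotation, is not recorded in the sources used here. Depth per library was only estimated relative to control 1.

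The filter required RPKM of 1 or more in 2 or more libraries and left 12567 of 21510 genes. A linear model with group and batch terms was fitted to log2(RPKM + 0.5) of all 8 libraries (limma 3.58.1, R 4.3.3, eBayes with trend), so fold changes are on that scale and understate the change of low genes. P-values are two-sided and Benjamini-Hochberg adjusted over all genes kept, with a threshold of 0.05. The interaction of batch and Tet was fitted in the same way. The fit with group and batch terms was also run on simulated data with independent noise. Those data held no interaction of batch and Tet, so the run does not bear on the interaction fit or on genes with one. The members and gene lists were chosen with earlier results of these data known. One gene of a supplementary list is not reported here.

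Named members are, per set and comparison, the 4 largest rises and 4 largest falls among called members whose mean RPKM was 5 or more, with the same sign in each batch. They also include the 3 highest and 3 lowest by level, the paralog pairs and the P stalk, and from each other list the 3 called genes with the smallest p for Tet.

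Deviations from the group mean correlated across genes at 0.476, 0.314 and 0.338 between control and Tet libraries of the same number. Batch 1 libraries of different numbers gave 0.334 and 0.272, so control and Tet libraries went together by batch, and the numbers showed no pairing within batch 1. Tet+EGF libraries gave -0.31 and -0.263 with control and -0.137 and -0.155 with Tet. The deviations of the 2 Tet+EGF libraries mirror each other and both are in batch 2, so these values cannot show pairing or its absence. Tet+EGF libraries were not taken as paired. Alternatives were pseudocounts of 0.1 and 1, no filter or a filter at a mean RPKM of 5, omission of the batch term, the replicate block, quantile and median-ratio scaling, single batches, and omission of each library. Promoter windows came from RefSeq (GRCh38.p14).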

Additional observations from a re-analysis of the deposited data

How the results depend on the processing

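For Tet against control, cytosolic calls in either direction numbered 13 with median-ratio scaling, 4 without the batch term, 18 without a filter and 5 with the replicate block, and 13 to 43 when 1 library was left out, with medians from -0.19 to -0.09. For the mitochondrial set they numbered 27 without the batch term, 26 with the block and 35 to 41 when 1 library was left out, with medians from -0.32 to -0.22 and a batch 2 median of -0.43.

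For Tet+EGF against Tet, cytosolic calls numbered 1 with a mean RPKM of at least 5 or without a filter, 6 with quantile scaling, 0 without the batch term or with the replicate block, and 1 to 9 when 1 library was left out, with medians from -0.12 to 0.01 and 0.11 without the batch term. Mitochondrial calls numbered 1 without the batch term, 0 with the block and 1 to 19 when 1 library was left out (medians from 0.04 to 0.13).

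For Tet+EGF against control, cytosolic calls numbered 4 without the batch term, 14 without a filter, 3 with the block and 5 to 37 when 1 library was left out. The medians were -0.033 without the batch term, -0.075 with the block and -0.32 to -0.17 when 1 library was left out. Mitochondrial calls numbered 13 without the batch term, 10 with the block and 8 to 41 when 1 library was left out (medians from -0.20 to -0.016, batch 2 median -0.20). For Tet+EGF the block ties libraries of different batches. The batch by Tet interaction was called for 13 cytosolic and 9 mitochondrial members with median-ratio scaling, and for 2 and 9 without a filter. RPLP1 changed sign for Tet+EGF against control, at 0.17 without the batch term and 0.036 with the block. The cause of these differences was not tested. With 2 or 3 libraries a group and no read counts, small changes cannot be resolved. When 1 library is left out of Tet+EGF, the remaining one is assumed to vary like the other groups.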

Other observations

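Among regulators of ribosomal protein genes, chosen here after their values were seen, MYC, a transcription factor of ribosome biogenesis genes, had 69.2, 171 and 174 RPKM in controls, 39.7, 202 and 208 with Tet, and 101 and 93.3 with Tet+EGF. It was at -0.10 (SE 0.19, limma adjusted p = 0.685) for Tet and at 0.93 (SE 0.26, limma adjusted p = 0.0454) for Tet+EGF against Tet, and in batch 2 the Tet+EGF libraries were above control and Tet, while all 4 batch 1 libraries were higher still. LARP1, which binds mRNAs with a terminal oligopyrimidine tract, had 105, 94.4 and 93.1 RPKM in controls, 66.9, 86.05 and 83.1 with Tet, and 91.5 and 96.4 with Tet+EGF, at -0.32 (SE 0.11, limma adjusted p = 0.0377) for Tet.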
